A study of Arabidopsis thaliana with 6 samples.

Results

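The genes followed here serve root nutrient uptake, namely NRT2.1 (AT1G08090), NAR2.1 (AT5G50200), NRT1.1 (AT1G12110) and NRT1.5 (AT1G32450) for nitrate, AMT1;1 (AT4G13510) and AMT1;2 (AT1G64780) for ammonium, PHT1;1 (AT5G43350) and PHT1;4 (AT2G38940) for phosphate, IRT1 (AT4G19690) for iron and SULTR1;2 (AT1G78000) for sulfate. They were listed by name and locus, with no threshold on a measured value but with earlier results of these data known, and are 10 of the 25388 Arabidopsis loci with a probe on the array. The 10 genes have 14 probes, because NRT1.1, PHT1;4, IRT1 and SULTR1;2 have 2 each. All 10 were among the 20171 loci tested, which needed a signal well above background on 2 or more of the 6 arrays, although NRT2.1 reached that level on 3 arrays and IRT1 on 4. The study asked how the transcriptome after gamma radiation differs between wild type and ago2 mutants of Arabidopsis thaliana, all in the Columbia-0 background. AGO2 is an Argonaute protein, which binds small RNAs and uses them to find target transcripts.

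The 3 lines were wild type, written WT, and a pair of ago2 mutants named ago2a and ago2c, whose alleles are not described further in the labels. Seedlings were grown on agar plates of diluted MS medium with sucrose and were 14 days old when treated. The irradiated group of each line received 200 Gy of Co-60 gamma radiation at 50 Gy per h over 4 h and was sampled at 24 h. The mock group of each line was not irradiated. Each of the 6 groups was measured on 1 single-colour array, hybridised with RNA of at least 10 whole seedlings that had been pooled over 3 independent batches. There was therefore no replicate array within a group, and the lines stand in for replicates in every test.

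Plants take up nitrate, ammonium, phosphate, sulfate and iron through membrane transporters in the outer cell layers of the root, and load part of the nutrient into the xylem for the shoot. Many of these transporter genes respond to the nutrient itself: nitrate induces NRT2.1 and NAR2.1, and a shortage of phosphate, iron or sulfate raises PHT1, IRT1 and SULTR1 genes. Because the shoot and the root were extracted together, the share of root RNA in the sample bears on each value. Fewer root cells and less of a transcript per root cell cannot be told apart here.

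Values are processed spot signals divided by the 75th percentile of the array, called scaled signal below, and differences between arrays are on the log2 scale. Between 70.5% and 73.3% of probes were well above background on each array, and the median processed signal ran from 229 to 468. AGO2 itself was well above background on both WT arrays, at scaled signals of 0.115 and 0.242, and on none of the 4 ago2 arrays. The label of whole seedlings was borne out by markers of both organs: 19 to 21 of 22 tested root markers and all 14 leaf photosynthesis markers were above background on every array. Among the root markers WOX5, of the quiescent centre, was above background on 3 arrays and PLT2, of the root stem cell niche, on 1. The root markers summed to a scaled signal of 59.7, 72.8 and 50.9 in the mock plants of WT, ago2a and ago2c, and of 79.9, 44.2 and 26.9 in the irradiated plants. This sum was lower after irradiation in both ago2 lines and higher in WT. By single genes, 16 of 22 markers had a value below 0 in WT, with a median log2 change of -0.07, against 19 in ago2a and 20 in ago2c. The part of root content in the transporter values below was not tested. No sequence is shown because neither probe nor gene sequences were used here.

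NRT2.1, the main high-affinity nitrate importer of the root, was close to background throughout. Its scaled signal was 0.0236 in mock WT and 0.0089 in irradiated WT, 0.0111 and 0.0215 in mock and irradiated ago2a, and 0.00998 and 0.0314 in mock and irradiated ago2c. The irradiated WT array and both mock ago2 arrays were not well above background, so the folds are bounds: at least 1.95-fold lower after irradiation in WT, at least 1.54-fold higher in ago2a and at least 1.82-fold higher in ago2c. NRT2.1 was the only one of the 10 genes that was lower in WT and higher in both ago2 lines. Its partner NAR2.1, a small membrane protein that NRT2.1 needs to act, did not follow it. NAR2.1 had scaled signals of 0.567, 0.639 and 0.390 in the mock plants of WT, ago2a and ago2c, and of 0.492, 0.589 and 0.496 in the irradiated plants. Its log2 changes of -0.20, -0.12 and 0.35 in the same order lay between the 5th and the 95th percentile of all loci.

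NRT1.1 imports nitrate over a wide range of concentrations and also senses it. Its scaled signal was 8.21, 9.89 and 6.80 in the mock plants of WT, ago2a and ago2c, and 9.48, 6.13 and 4.83 in the irradiated plants. Irradiated plants were thus higher in WT, by a log2 change of 0.21, and lower in both ago2 lines, by log2 changes of -0.69 and -0.49. The second probe of NRT1.1 gave 0.23, -0.95 and -0.46 for WT, ago2a and ago2c. NRT1.5, which loads nitrate into the root xylem, had scaled signals of 5.89, 7.07 and 5.12 in the mock plants of WT, ago2a and ago2c, and of 6.60, 3.34 and 2.42 in the irradiated plants. Both irradiated ago2 arrays lay below all 4 other arrays, and the log2 change was -1.08 in each ago2 line against 0.16 in WT.

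The ammonium importers of the root surface and cortex varied little. AMT1;1 had scaled signals of 8.98, 9.80 and 8.01 in the mock plants of the 3 lines, in the order WT, ago2a and ago2c, and of 9.50, 10.7 and 8.60 in the irradiated plants. Its log2 change was between 0.08 and 0.12 in the 3 lines. AMT1;2 had scaled signals of 0.990 in mock and 0.995 in irradiated WT, of 1.198 and 1.13 in the same order in ago2a, and of 1.00 and 0.848 in ago2c, with log2 changes of 0.01, -0.08 and -0.24. The arrays of AMT1;1 were highest in ago2a and lowest in ago2c in either treatment, and those of AMT1;2 were lowest in irradiated ago2c.

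PHT1;1, a main phosphate importer of the root epidermis, showed the widest range of the 8 genes that were well above background on all arrays. Its scaled signal was 6.63 in mock WT and 10.3 in irradiated WT, 9.86 and 3.56 in mock and irradiated ago2a, and 4.56 and 1.45 in mock and irradiated ago2c. It was 1.56-fold higher after irradiation in WT, 2.77-fold lower in ago2a and 3.14-fold lower in ago2c. PHT1;4, which together with PHT1;1 carries most phosphate uptake of the root, had a scaled signal of 0.704 in mock WT and 1.47 in irradiated WT, against 1.04 and 0.686 in ago2a and 0.532 and 0.555 in ago2c. It was 2.09-fold higher after irradiation in WT, where it was the only one of the 10 genes at least 2-fold higher, while its log2 change was -0.60 in ago2a and 0.06 in ago2c. A second probe for the gene gave log2 changes of 1.32, -1.70 and 0.12, so the 2 probes shared the sign in each line and differed in size in ago2a.

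IRT1, the main iron importer of the root epidermis, had scaled signals of 0.0481 and 0.0695 in mock and irradiated WT, and of 0.0537 and 0.0189 in mock and irradiated ago2a. In ago2c it was not well above background in either treatment, at 0.0191 and 0.0166, and no fold is given. It was 2.85-fold lower after irradiation in ago2a, and its log2 change in WT was 0.53. SULTR1;2, the main sulfate importer of the root under sufficient supply, had scaled signals of 1.33, 1.82 and 1.76 in the mock plants of WT, ago2a and ago2c, and of 1.597, 0.998 and 0.629 in the irradiated plants. The log2 change in WT was 0.27, that in ago2a -0.87, and the gene was 2.80-fold lower after irradiation in ago2c. Its second probe was far dimmer, and its log2 changes had the same signs, at 0.49, -1.99 and -0.83, although it was not well above background on either irradiated ago2 array.

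**Figure D1:**
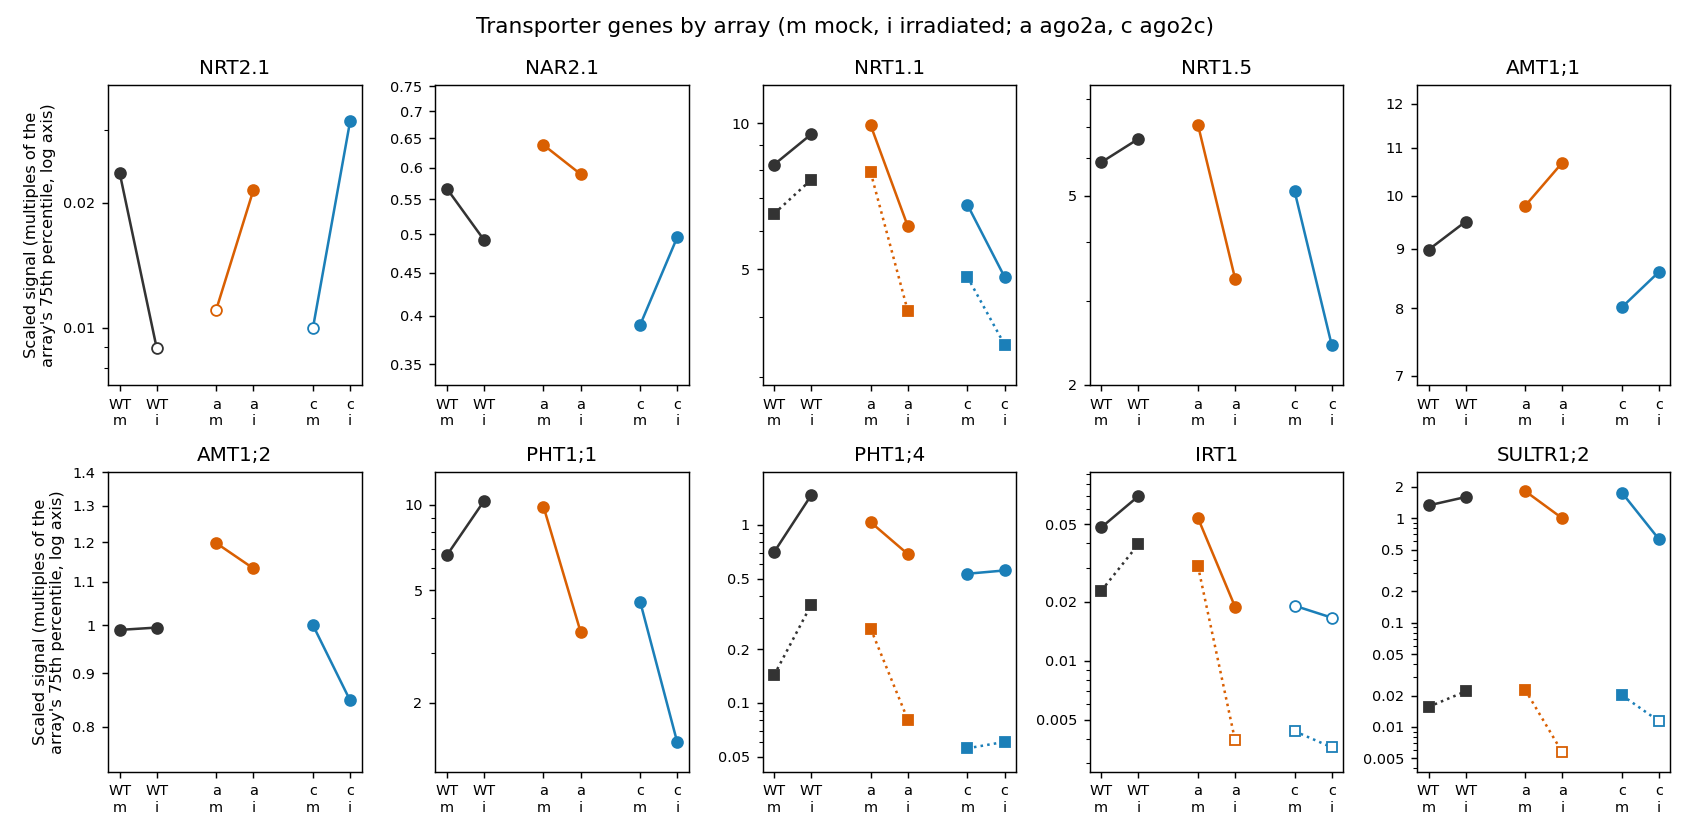
Scaled signal of each gene on each of the 6 arrays, as multiples of the array's 75th percentile on a log axis, mock (m) and irradiated (i) joined by a line for WT, ago2a (a) and ago2c (c). Circles and solid lines are the brightest probe, squares and dotted lines the second probe, and open symbols were not well above background. The lines of NRT1.1, NRT1.5, PHT1;1 and SULTR1;2 slope up in WT and down in both ago2 lines, and those of NRT2.1 slope the other way.

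In the single lines, counted without a test, 1 of the 10 genes was at least 2-fold higher after irradiation in WT (PHT1;4, with a background of 1.27% of loci) and 1 was at least 2-fold lower by its measured signal (NRT2.1, with a background of 1.57%), although the bound given above is at least 1.95-fold. In ago2a 3 genes were at least 2-fold lower, namely NRT1.5, PHT1;1 and IRT1, where 7.39% of all loci were, and none was at least 2-fold higher, where 1.39% of loci were. In ago2c 3 genes were at least 2-fold lower, namely NRT1.5, PHT1;1 and SULTR1;2, where 5.5% of loci were, and NRT2.1 was higher by its measured signal, where 1.27% were. At 3-fold the counts were 0 lower in WT and ago2a (backgrounds 0.684% and 2.98%) and 1 lower in ago2c, PHT1;1 (2.41%), with 0, 0 and 1 higher in WT, ago2a and ago2c (0.526%, 0.555% and 0.714%), the last being NRT2.1 by its measured signal. For WT the median log2 change of the 10 genes was 0.19, and it was -0.64 for ago2a and -0.22 for ago2c, beside -0.01, 0.06 and 0.01 over all loci. In WT 8 of 10 genes had a value above 0, as did 47.1% of all loci. In ago2a 8 of 10 had a value below 0, and in ago2c 6 of 10, as did 43.7% and 48.6% of all loci. With arrays scaled by their median the median over all loci in ago2a was 0.25, and the values of AMT1;2 and NAR2.1 there turned to 0.11 and 0.07.

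**Figure D2:**
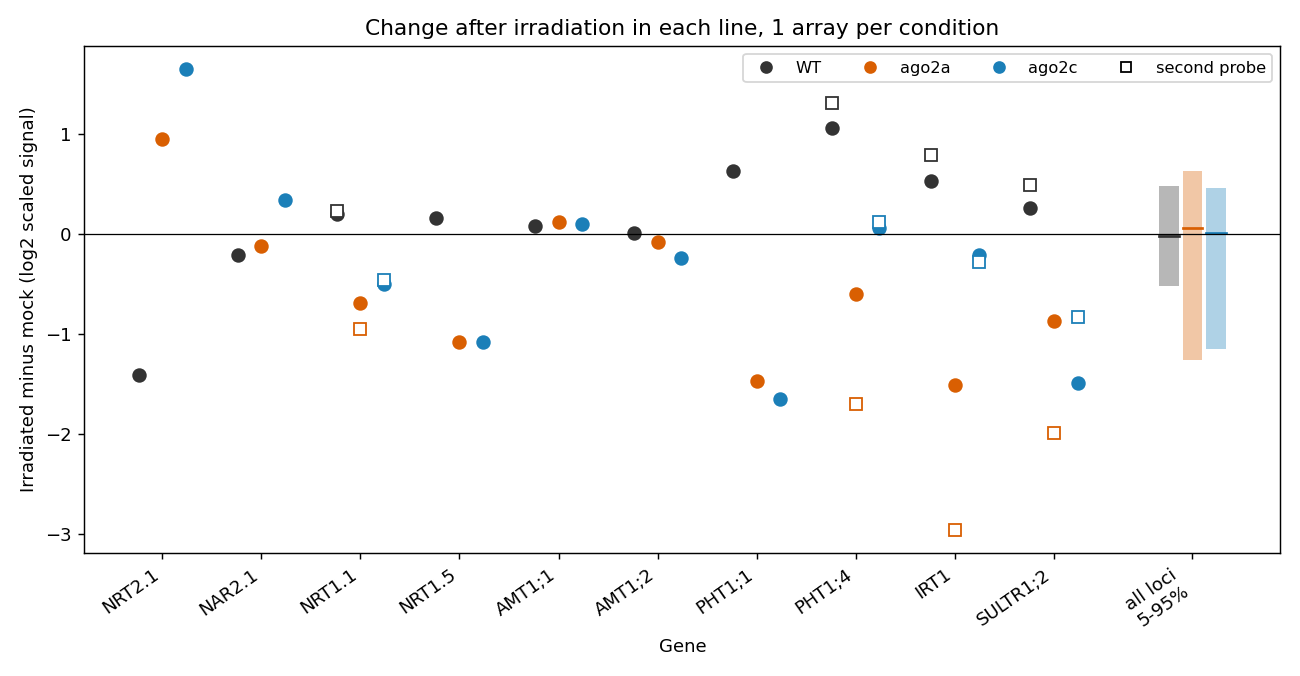
Irradiated minus mock in each line for the 10 genes, as log2 difference of scaled signal, 1 pair of arrays per line. Circles are the brightest probe, open squares the second probe, and the bars at the right span the 5th to 95th percentile of all loci with a line at the median. PHT1;1 sits at 0.64 in WT and at -1.47 and -1.65 in ago2a and ago2c, and AMT1;1 lies between 0.08 and 0.12 in all 3 lines.

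Taking ago2a and ago2c as 2 samples of the mutant, 2 of the 10 genes fell after irradiation within the ago2 lines, where 4.71% of loci fell and 0.699% rose, 5.41% together. PHT1;1 fell by 1.56 ± 0.14 (SE, limma adjusted p = 0.0216, 2 lines) on the log2 scale, and NRT1.5 fell by 1.08 ± 0.13 (limma adjusted p = 0.0304). Both genes were lower in 2 of 2 lines. SULTR1;2 at -1.18 ± 0.20 (limma adjusted p = 0.060) and NRT2.1 at 1.31 ± 0.22 (limma adjusted p = 0.055) did not pass. The bound for NRT2.1 was at least 1.67-fold higher, since neither mock array of the ago2 lines was well above background. NRT1.1 was at -0.59 ± 0.14 (limma adjusted p = 0.12) and IRT1 at -0.86 ± 0.35 (limma adjusted p = 0.30), and the values of the remaining 4 genes lay between -0.27 and 0.12. The median over the 10 genes was -0.43, beside 0.04 over all loci. The fit has 1 residual degree of freedom beside 3.17 of the eBayes prior. Its SEs and p-values therefore lean on a variance estimated over all loci more than on the spread between the 2 lines. Both calls ended when dim probes were kept in (limma adjusted p = 0.109 and 0.111). The call of NRT1.5 also ended when the probes of each locus were averaged (limma adjusted p = 0.0501). Conversely, SULTR1;2 passed in 8 of 10 alternative settings and NRT2.1 in 4 of 8, so the line between genes that passed and did not depended on the processing. Of the 22 root markers 12 fell in the same fit and 10 did not pass, with a median of -1.53.

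Across all 3 lines none of the 10 genes passed the test for irradiation (0.238% of loci did), and none had an unadjusted p under 0.05, against 2803 loci, in limma. The SD of the 3 lines' log2 changes was 1.61 for NRT2.1 and 0.72 for NRT1.5, as WT and the ago2 lines stood apart. Without WT the count was 2, as given above.

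The comparison named by the study is whether the response to irradiation differs between the ago2 lines and WT. For 6 genes, namely NRT1.1, NRT1.5, IRT1, AMT1;2, PHT1;1 and SULTR1;2, the value was above 0 in WT and below 0 in both ago2 lines, which held for 12% of all loci. For NRT2.1 it was the reverse, as for 16.3% of loci. AMT1;2 did not keep that pattern under median scaling, and the IRT1 value of ago2c came from dim arrays. In the test of the difference itself no gene passed, nor did any of the 20171 loci (0%). At an unadjusted p under 0.05 limma gave 6 of the 10 genes and 1779 loci. The difference for PHT1;1 was -2.20 ± 0.24 (SE, limma adjusted p = 0.16) and that for NRT2.1 was 2.71 ± 0.37 (limma adjusted p = 0.16). NRT2.1 was well above background on only 3 arrays, and its difference was 1.00 with normexp background correction. That for SULTR1;2 was -1.44 ± 0.35, for PHT1;4 -1.33 ± 0.36 and for NRT1.5 -1.24 ± 0.23, with limma adjusted p of 0.27, 0.33 and 0.18. NAR2.1 and both ammonium importers had differences between -0.17 and 0.32. The median was -1.02 for the 10 genes and 0.06 for all loci. The count depended on the processing: it was 5 with normexp background correction, 2 with arrays scaled by their median and 1 with a trended prior, beside 557, 636 and 212 loci, or 2.76%, 3.15% and 1.05%. The 5 genes were NRT1.5, IRT1, SULTR1;2 and both phosphate importers, and the 2 were NRT2.1 and PHT1;1.

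Set against WT within a treatment, the transporters of the ago2 lines differed more after irradiation than in mock plants, as a description of single arrays. In mock ago2a 1 of 10 genes, NRT2.1, was at least 2-fold lower than in WT by its measured signal (background 0.441% of loci), and in mock ago2c 2 were, NRT2.1 and IRT1 (background 3.81%). After irradiation 3 genes were at least 2-fold lower in ago2a, namely IRT1 and both phosphate importers (background 6%), and 5 in ago2c, namely these, NRT1.5 and SULTR1;2 (background 9.86%). By its measured signal NRT2.1 was the 1 gene at least 2-fold higher than in WT in each irradiated ago2 line, where 1.25% of loci in ago2a and 0.858% in ago2c were. Its bounds were at least 1.77-fold higher in ago2a and at least 2.58-fold in ago2c. Irradiated ago2c was 7.11-fold below irradiated WT for PHT1;1. IRT1 was 3.68-fold below WT in irradiated ago2a and at least 4.18-fold below WT in irradiated ago2c. The share of loci called lower was itself larger after irradiation in both lines. Both irradiated ago2 arrays lay across from WT in the division of arrays described below for the probe pairs. Mock ago2c lay there too, and mock ago2a lay on the side of WT. The ago2c arrays were also on another slide than WT. Neither slide nor this division can be told apart from these differences.

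**Figure D3:**
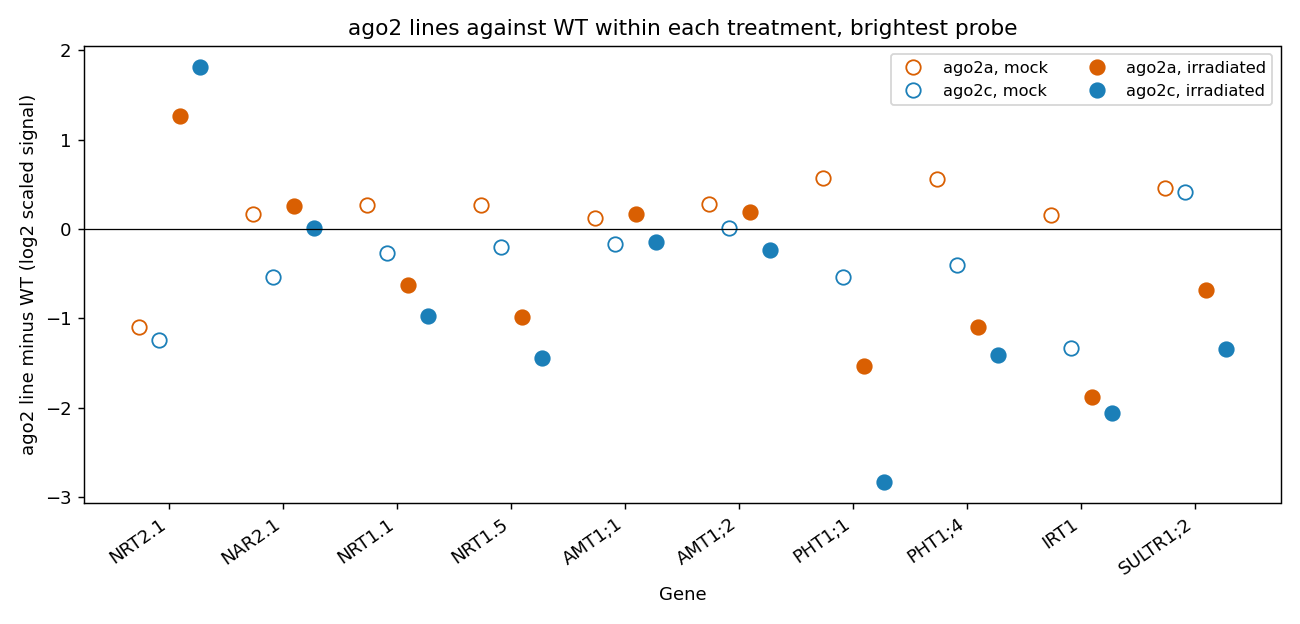
Each ago2 line minus WT within the mock (open circles) and irradiated (filled circles) treatment, as log2 difference of scaled signal of the brightest probe, 1 pair of arrays per point. For PHT1;1 the irradiated points lie at -1.54 in ago2a and -2.83 in ago2c, and the mock points at 0.57 and -0.54.

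Over both treatments, no gene passed the test of the ago2 lines against WT (0.00496% of loci did), and none had an unadjusted p under 0.05, against 788 loci, in limma. IRT1 was at -1.28 ± 0.53 (SE, limma adjusted p = 0.64) and PHT1;1 at -1.08 ± 0.69 (limma adjusted p = 0.64). The ago2 lines also differed from each other: mock ago2c minus mock ago2a had a median log2 difference of -0.50 over the 10 genes, beside 0.08 over all loci. At least 2-fold lower in mock ago2c were 2 genes, PHT1;1 and IRT1, where 5.77% of loci were. IRT1 was not well above background in mock ago2c, and NRT2.1 on neither of these 2 arrays. The root markers likewise summed to 50.9 in mock ago2c and 72.8 in mock ago2a. The 2 ago2c arrays were on a slide of their own, so slide and line cannot be told apart for that difference or for ago2c against WT.

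The 4 genes with 2 probes show how far probes of 1 gene differed between arrays. For PHT1;4 the second probe minus the brightest, relative to mock WT, was 0.25 in irradiated WT and 0.31 in mock ago2a, but -0.80 in irradiated ago2a, -0.96 in mock ago2c and -0.90 in irradiated ago2c. IRT1 gave 0.26 and 0.26, then -1.19, -1.05 and -1.13, with the second probe not well above background on those last 3 arrays. NRT1.1 showed the same division at a smaller size, with -0.24, -0.16 and -0.13 on the last 3 arrays. SULTR1;2 differed, with -1.04 on irradiated ago2a, -0.04 on mock ago2c and 0.62 on irradiated ago2c. The arrays of mock WT, irradiated WT and mock ago2a thus stood apart from the other 3 in this measure for 3 of the 4 genes. The mock and irradiated arrays of WT lay on the same side of that division, as did those of ago2c, while those of ago2a lay on opposite sides. As a gene with many probes outside the set, LHCB1.3, of the light-harvesting antenna, gave log2 changes from -0.81 to 0.54 over its 9 probes in ago2a, and from -0.12 to 0.08 in ago2c. The changes of NRT1.5, PHT1;1 and SULTR1;2 were -1.08, -1.65 and -1.49 in ago2c, and -1.08, -1.47 and -0.87 in ago2a, each from 1 pair of arrays. In ago2a irradiation and this division cannot be told apart, which carries into every fit that uses ago2a. The part of the division in the transporter values was not tested. This division was already known from earlier results of these data. With it as a block, the ago2 against WT value of PHT1;1 was 0.10 in place of -1.08. That value leans on mock ago2a, the only ago2 array on the side of WT. The remaining 6 genes have 1 probe each and offer no such check.

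**Figure D4:**
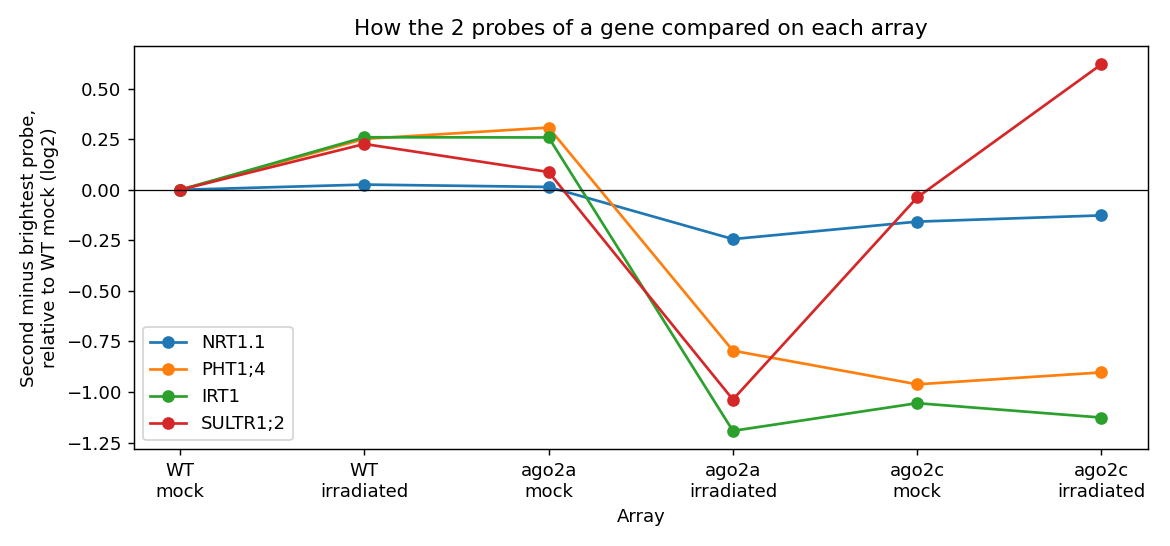
Log2 signal of the second probe minus that of the brightest probe on each array, relative to mock WT, for the 4 genes with 2 probes. IRT1 and PHT1;4 lie between 0 and 0.31 on the first 3 arrays and between -0.80 and -1.19 on the last 3.

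The nearest relatives of the 10 genes were measured alongside. PHT1;2, which lies beside PHT1;1 in a tandem cluster of near-identical phosphate transporters, had scaled signals of 0.430, 0.677 and 0.219 in the mock plants of WT, ago2a and ago2c, and of 0.651, 0.210 and 0.0775 in the irradiated plants. It fell by 1.59 ± 0.14 on the log2 scale within the ago2 lines (limma adjusted p = 0.0216). Whether the probes of these neighbours separate their transcripts was not tested, so it is uncertain which of the genes gave the signal. PHT1;3, another member of that cluster, and NRT2.2, a close copy of NRT2.1, were not well above background on any array.

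AMT1;3, a further ammonium importer, had scaled signals of 0.361, 0.520 and 0.349 in the mock plants of WT, ago2a and ago2c, and of 0.420, 0.224 and 0.144 in the irradiated plants. It fell by 1.25 ± 0.13 on the log2 scale within the ago2 lines (limma adjusted p = 0.0258). SULTR1;1, the sulfate importer raised by sulfate shortage, was above background in WT and in both mock ago2 lines and on neither irradiated ago2 array. It was at least 2.68-fold lower after irradiation within the ago2 lines (limma adjusted p = 0.0218). IRT2, a close relative of IRT1, had scaled signals of 0.116, 0.137 and 0.0365 in the mock plants of WT, ago2a and ago2c, and of 0.130, 0.0161 and 0.0111 in the irradiated plants, the last not well above background. It fell by 2.41 ± 0.36 within the ago2 lines (limma adjusted p = 0.0450).

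Further genes of each nutrient were counted by list, in the fit of irradiation within the ago2 lines, where 4.71% of all loci fell. No gene of any list passed in the higher direction there, or in either direction in the other 3 fits. In iron uptake and its regulators 5 of 14 fell, with a median of -0.93. They included the transcription factors BHLH38 (at least 1.39-fold lower, limma adjusted p = 0.0210) and BHLH39 (at least 1.95-fold lower, limma adjusted p = 0.0258), which promote iron uptake. BHLH38 was at least 2.11-fold lower in ago2a. In ago2c it was not well above background in either treatment, and no fold is given. BHLH100, of the same group, also fell (-1.67, limma adjusted p = 0.0398, with irradiated ago2a not well above background), but its value was -1.64 in WT and its response difference -0.03 (limma adjusted p = 0.99). FIT, their partner and a direct regulator of IRT1, was at -0.68 (limma adjusted p = 0.11). FRO2, the reductase that supplies IRT1 with ferrous iron, was at -0.90 (limma adjusted p = 0.15). In iron transport, chelation and storage 1 of 18 fell, IREG2, a metal exporter of the vacuole membrane, at -1.44 (limma adjusted p = 0.0315).

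Of 9 tested nitrate transporters 1 fell, NRT1.9, which loads nitrate into the root phloem (-0.97, limma adjusted p = 0.0396), and of 17 nitrogen regulators 2 fell. These were ANR1, a MADS-box factor of lateral root growth on nitrate (-1.98, limma adjusted p = 0.0210), and HRS1, a repressor tied to nitrate and phosphate signals (-1.23, limma adjusted p = 0.0354). None of the 16 nitrate assimilation genes passed, with a median of -0.09. Their brightest members were GLN2, the plastid glutamine synthetase, and NIA2, a nitrate reductase, at 0.34 and 0.02, but single probes of these genes disagreed in ago2a, by 0.44 against -1.13 for GLN2. Of 4 ammonium transporters AMT1;3 alone fell.

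Of 7 tested phosphate transporters 2 fell, PHT1;2 and PHO1, which exports phosphate into the xylem (-0.93, limma adjusted p = 0.0406). None of the 20 genes of the phosphate starvation response passed, and their median was -0.03. Among them AT4, a non-coding RNA that binds the microRNA of phosphate shortage, had a log2 change of 0.77 in WT against -1.28 and -0.83 in the ago2 lines, and the phosphate sensor SPX1 had 0.38, -0.45 and -0.35. Of 11 sulfate transporters SULTR1;1 alone fell, and none of the 14 genes of sulfur assimilation passed, with a median of 0.18. Of 12 other root transporters 3 fell, namely the zinc transporter ZIP3 (-1.90, limma adjusted p = 0.0234), the potassium channel AKT1 (-0.97, limma adjusted p = 0.0468) and the potassium importer HAK5 (-0.95, limma adjusted p = 0.0405).

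The root markers had the lowest median of the lists, -1.53, with 12 of 22 lower. Among them were CASP4, a membrane protein of the endodermal Casparian strip, and EXP7 and EXP18, expansins of root hair cells. EXP7 fell by 2.51 and EXP18 by 1.84, and CASP4 was at least 3.11-fold lower (limma adjusted p between 0.0210 and 0.0330). The markers did not all move alike. SHR, SCR and WOX5 had log2 changes of 0.03, 0.42 and 0.54 in ago2a, and of -0.07, -0.03 and 0.02 in ago2c. LRX1 was at -1.60 in ago2a and at 1.03 in ago2c. None of the 14 leaf markers passed, with a median of 0.26. In WT the median of the root markers was -0.07 and that of the leaf markers -0.02.

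**Figure D5:**
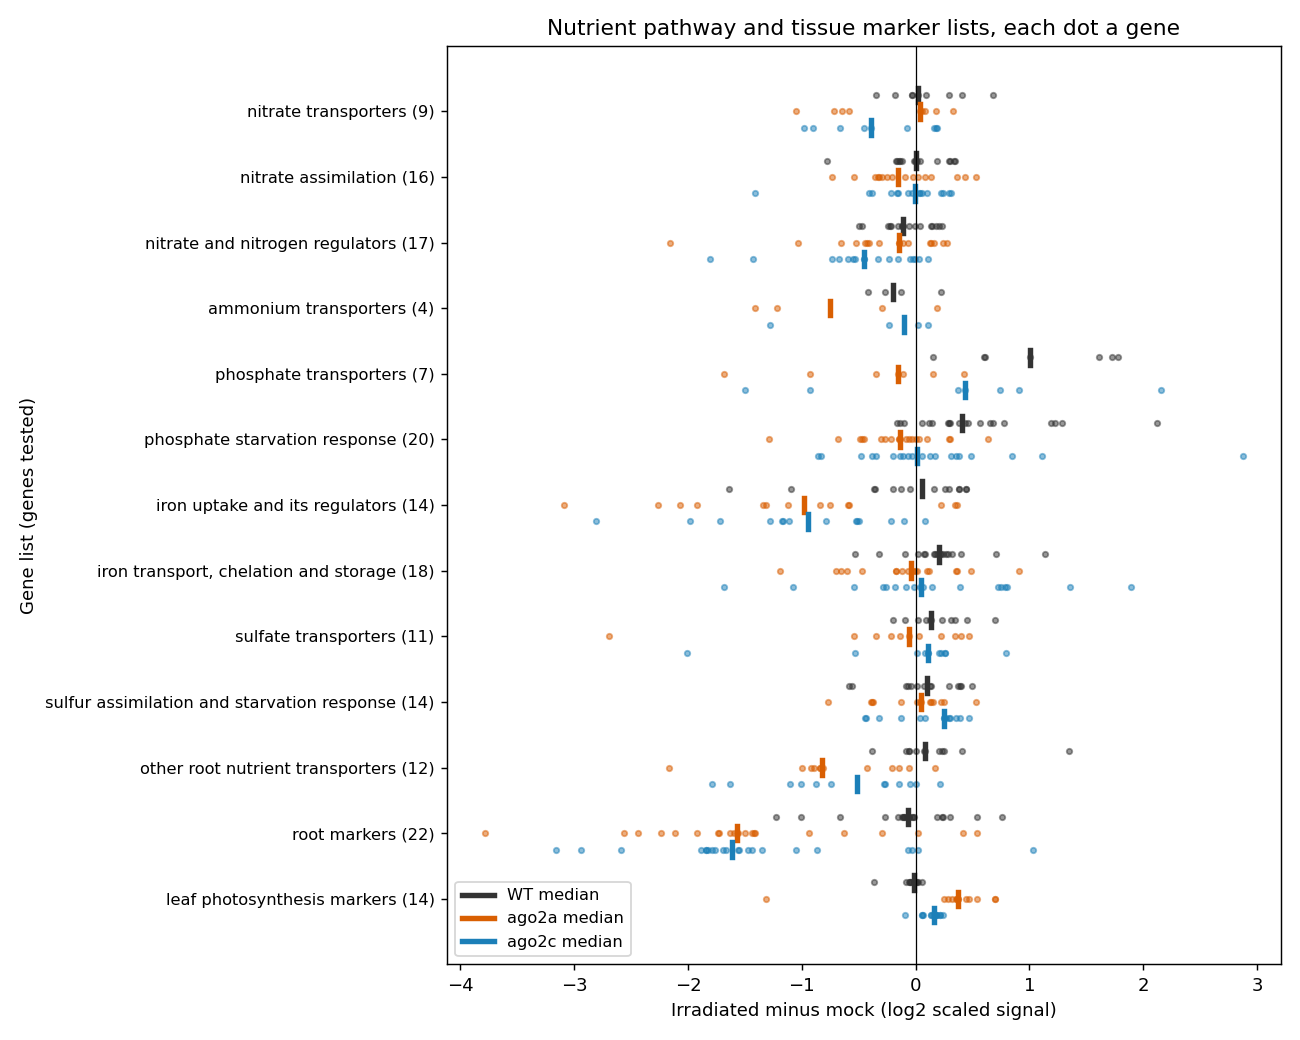
Irradiated minus mock, as log2 difference of scaled signal, for the genes of each list in WT, ago2a and ago2c, 1 dot per tested gene, with a bar at the median and the number of tested genes in brackets. Root markers lie at -0.07 in WT and at -1.57 and -1.61 in the ago2 lines, and phosphate transporters at 1.00 in WT.

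Over the 6 arrays the genes did not share 1 profile. The mean profile of the 8 genes above background on every array was followed by PHT1;1 and NRT1.1 at a Pearson r of 0.99 each, and by NRT1.5 at 0.95, SULTR1;2 at 0.86, PHT1;4 at 0.81, AMT1;2 at 0.68, AMT1;1 at 0.36 and NAR2.1 at 0.34. These genes are part of the mean, and all 6 points share the same arrays. The loci outside the set whose profiles were most like it, among 1856 that varied, were NAXT1, a nitrate efflux transporter of the root, with r = 0.999, EXT3, a cell wall extensin, with r = 0.997, IGMT3, a methyltransferase of indole glucosinolates, with r = 0.996, CYP71B37, a cytochrome P450, with r = 0.995, and PHT1;2 with r = 0.994. Of the 1856 loci 663 had an r above 0.9, so this profile was common on these arrays.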

How the data were processed

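Cy3-labelled cRNA was made from the total RNA for Agilent arrays, as the labels' protocols state. Per the file headers, Feature Extraction 11.0.1.1 produced the deposited spot intensity values, and the processed signal used here is its background-corrected column. Raw and background intensity columns of the same deposited files served the normexp alternative. The authors' value table holds a linear ratio whose scale is not stated. For 99.9% of probes it equalled the processed signal over the array's median and over a constant per probe, within 0.01 on the log2 scale, and its column medians ran from 0.878 to 1.06. What that constant is stays unknown. It served as an alternative.

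Control spots and 53 probes with outlier flags were left out, which kept 43550 probes. Of these 34309 were assigned to a locus through their accession in the RefSeq gene table of TAIR10.1. The processed signals were scaled to the 75th percentile of their array and taken to log2. A probe was kept if well above background on at least 2 of 6 arrays, and the brightest probe stood for its locus. Models were fitted over all 20171 loci with lmFit and eBayes of limma 3.58.1 (R 4.3.3), and p-values were adjusted by Benjamini-Hochberg, with a threshold of 0.05. Irradiation was fitted in 3 lines and within the ago2 lines with line as a block (2 and 1 residual degrees of freedom), ago2 against WT with irradiation as a term (3), and the response difference as an interaction (1). The scripts were tested on simulated data. For a gene not well above background in a whole group, folds are bounds, taken from the higher of its own signal and the lowest signal above background of each array. The labels give no replicate numbers, and arrays were paired by line alone. The p-values rest on the spread between lines, moderated by eBayes towards a variance estimated over all loci. The number of arrays limits the precision.

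The 10 genes and the 13 gene lists were chosen with earlier results of these data known, so their counts are descriptions. Of 200 list entries 9 were left out because the gene table does not carry their name, and 190 of the other 191 had a probe. Of each list up to 4 genes past a test were named, by largest change, or else the 2 with the highest signal. One root marker that this rule names is not reported here by itself but counts in its list. Nearest relatives, FRO2 and FIT were named in any case. Of the planned relatives NRT3.2 was not analysed here. Alternatives covered background correction, scaling, the authors' values, the filter, the choice of probe, the eBayes prior, blocks and leaving out lines or treatments.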

Additional observations from a re-analysis of the deposited data

Results flagged for a closer look

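For 7 genes the irradiated minus mock value had one sign in WT and the other in both ago2 lines. It was above 0 in WT for 6 of them, a pattern of 12% of all loci, and below 0 for NRT2.1, a pattern of 16.3%. AMT1;2 was at 0.01 in WT, and IRT1 was not well above background on either ago2c array. The response of the ago2 lines minus that of WT was -2.20 on the log2 scale for PHT1;1, -1.44 for SULTR1;2, -1.39 for IRT1, -1.24 for NRT1.5, -0.80 for NRT1.1 and -0.17 for AMT1;2, and 2.71 for NRT2.1. The interaction test passed for none of them, with limma adjusted p from 0.16 to 0.93. In ago2c alone the difference was -2.29 for PHT1;1, -1.75 for SULTR1;2, -1.25 for NRT1.5 and 3.06 for NRT2.1, the last with 1 dim array in each line. In ago2a alone it was -2.11, -1.13, -1.24 and 2.365 in the same order. The ago2a pair lay across the division seen in the probe pairs, and the ago2c pair was on a slide of its own. The part of either in these values was not tested.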

How the results depend on the processing

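Within the ago2 lines the count of transporter genes past the test was 2, beside 1091 loci. It was 5 with normexp correction, beside 2105 loci. It was 4 with quantile normalization (978 loci), median scaling (1808), the authors' values (1817), a trended prior (1626) or a robust prior. It was 0 with no filter on dim probes. Calls over all loci thus also rose with normexp, median scaling, the authors' values and a trended prior, but not with quantile normalization. For the response difference the count was 0 (0% of loci). It was 5 with normexp (2.76% of loci), 2 with median scaling (3.15%), 2 with the authors' values (3.17%) and 1 with a trended prior (1.05%). For irradiation in 3 lines it was 0, and leaving out a line gave 0 to 2. Of single-line counts, genes at least 2-fold lower in WT numbered 1, and 0 with normexp or with probes above background on all arrays. Genes at least 2-fold higher in ago2c numbered 1, and 0 under the same 2 settings. Genes lower in ago2a numbered 3, and 5 with the mean of probes but 2 with normexp, median scaling, the authors' values or probes above background on all arrays, while genes higher in ago2a numbered 0, and 1 with quantile, median scaling or the authors' values. At 3-fold the counts were 0 lower and 0 higher in WT, 0 lower in ago2a and 1 lower in ago2c.

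Values that turned sign were all outside the threshold of their test before and after. In ago2 against WT, NAR2.1 was 0.020 with quantile, 0.088 with median scaling, 0.087 with the authors' values, 0.37 with the array division as a block, 0.22 with slide as a block and 0.14 in irradiated arrays, and ran from -0.26 to 0.22 leaving out an ago2 line. AMT1;1 was 0.11 with median scaling, 0.11 with the authors' values, 0.18 with the array division, 0.15 with slide and 0.012 in irradiated arrays, and ran from -0.15 to 0.15 leaving out an ago2 line. With the array division NRT2.1 was -0.30, NRT1.1 0.12, PHT1;1 0.10, PHT1;4 0.32 and SULTR1;2 0.050. In mock arrays NRT2.1 was -1.17, NRT1.5 0.031, PHT1;1 0.015, PHT1;4 0.078 and SULTR1;2 0.43. AMT1;2 was -0.022 in irradiated arrays and ran from -0.11 to 0.23 leaving out an ago2 line. In the response difference AMT1;1 was -0.041 with quantile. For irradiation in 3 lines IRT1 was 0.16 with the array division. Leaving out a line there, IRT1 ran from -0.86 to 0.16, PHT1;4 from -0.27 to 0.56, NRT2.1 from -0.22 to 1.31 and NAR2.1 from -0.16 to 0.12. The cause of these turns was not tested.

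Over all loci the count within the ago2 lines ran from 0 to 2105 around 1091, for irradiation in 3 lines from 0 to 1091 around 48, for ago2 against WT from 0 to 4 around 1, and for the response difference from 0 to 640 around 0. Loci that rose were 12.9% of the calls within the ago2 lines and 23.9% with median scaling, and 93.8% of those for irradiation in 3 lines and 63.8% with normexp. Of the other alternative values for single genes, 612 kept direction and side of the threshold or stayed within the spread, 9 moved, 27 gained a call and 3 lost one. NRT2.1 and IRT1 are limited by signal close to background. With normexp the value of NRT2.1 within the ago2 lines was 0.41 in place of 1.31. Its change in ago2c was 0.18 in place of 1.65. The labels carry no replicate numbers, so mock and irradiated arrays were paired by line alone.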

Other observations

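Some further genes of phosphate supply had higher values after irradiation in WT. Of 7 tested phosphate transporters 4 were at least 2-fold higher there, where 1.27% of all loci were, and these were picked out after their values were seen. PHT1;5, which moves phosphate between organs, was 2.01-fold higher, PHT1;7 3.43-fold and PHT1;8 3.06-fold, and PHT1;9 was at least 3.30-fold higher, its mock array being dim. In ago2a none of the 4 reached 2-fold, with log2 values from -0.35 to 0.43. In ago2c PHT1;7 was at least 4.46-fold higher, and PHT1;8 and PHT1;9 had log2 values of 0.75 and 0.91. Of 20 phosphate starvation genes 4 were at least 2-fold higher in WT, and the list's median there was 0.40, with PHR1, PHO2 and NLA, which act in phosphate signalling, at -0.10, -0.16 and -0.14. RNS1, a ribonuclease that frees phosphate from RNA, was 4.34-fold higher in WT and 7.33-fold higher in ago2c, with a log2 value of -0.15 in ago2a. SPX3, of the phosphate sensors, was 2.44-fold higher in WT and 2.16-fold higher in ago2c, with a log2 value of 0.29 in ago2a. IPS1, a non-coding RNA of phosphate shortage, was 2.34-fold higher in WT and MGD3, a galactolipid synthase, 2.27-fold. These are differences between single arrays with no test, and none of these genes passed any of the 4 fits.

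The ferritin genes FER1 and FER3, of iron storage, were 3.71-fold and 2.56-fold higher after irradiation in ago2c, with log2 values of 0.27 and 0.40 in WT and 0.01 and 0.10 in ago2a. A further ferritin gene, FER4, stood at 0.91 in ago2a and 0.78 in ago2c on the log2 scale, and at 0.16 in WT. The median of the list of iron transport, chelation and storage in ago2c was 0.05. None of the 3 passed a test, and they were picked out after their values were seen. HAK5 was 2.54-fold higher after irradiation in WT, while it fell within the ago2 lines.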
